A study of Mus musculus with 6 samples.

Results

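The lysyl oxidase family of the mouse was examined as the genes whose symbol in the deposited gene table is *Lox*, *Loxl1*, *Loxl2*, *Loxl3* or *Loxl4*. All 5 members were found among the 25140 genes listed, and all 5 were among the 14334 genes with enough counts to be tested. The transcripts were followed in cultured cardiac fibroblasts that received TGFβ or its vehicle. Each member was higher with TGFβ, *Loxl3* by the largest factor and *Loxl1* by the smallest, and *Lox* was the most abundant member in both groups. The small difference of *Loxl1* did not stay under the significance threshold in most fits that left out a single library.

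Lysyl oxidases are secreted enzymes that need copper and oxidise lysine and hydroxylysine side chains of collagen and elastin. The aldehydes they make condense without further enzymes into the covalent cross-links that give collagen fibres and elastic fibres their strength. *Lox* and *Loxl1* encode enzymes with a propeptide that is cut off outside the cell, whereas *Loxl2*, *Loxl3* and *Loxl4* encode enzymes with scavenger receptor domains in front of the catalytic part. In the heart the family is best known for stiffening the matrix that fibroblasts lay down.

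The fibroblasts came from adult hearts of C57BL/6 mice and were used at passage 1, after growth in DMEM with 25 mM glucose and 10% FBS. Both groups were held in 1% FBS, for 16 h by the sample labels and for 24 h by the study's methods, and then received vehicle (3 libraries) or 10 ng/mL TGFβ (3 libraries) for 24 h. TGFβ is a cytokine that drives fibroblasts towards the myofibroblast state. The study's results speak of embryonic fibroblasts where its methods and the labels name cardiac fibroblasts. Polyadenylated RNA was sequenced as single reads of 75 bases, so the values are of mRNA and not of protein or enzyme activity. The count columns name the group but no replicate, and the libraries are called vehicle a, b and c and TGFβ a, b and c below, letters that follow the column order. No label says whether libraries of the same letter belong together, and none were paired, but some markers ran in the same order in both groups: the endothelial *Cdh5* had 156, 173 and 271 CPM in vehicle a, b and c and 125, 134 and 203 CPM in TGFβ a, b and c. The study's methods speak of biological replicates, but the labels do not say which cultures or animals they came from, so p-values measure the spread between these samples.

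Each library held 27851677 to 31072338 counts. The 10 fibroblast markers examined were all detected and 7 of them were lower with TGFβ, among them *Tcf21* (303 with vehicle and 147 with TGFβ) in CPM, which express counts relative to the TMM-adjusted size of the library. Over all tested genes, 20.5% were called higher and 20.1% lower. Of the cardiomyocyte markers, *Myh6* had at most 16 counts in any library and *Pln* and *Actn2* at most 4 and 3, whereas *Tnnt2* was detected at 26.6 to 58.3 CPM and made up nearly all of that list's sum (38.6 to 59.7 CPM with vehicle, 27.5 to 40.6 CPM with TGFβ). The 8 endothelial markers summed to 462 to 716 CPM with vehicle and to 423 to 586 CPM with TGFβ, with edgeR adjusted p of 0.144 to 0.972. Of 8 smooth muscle markers, which activated fibroblasts share in part, 5 were higher and 1 was lower. Their sum went from 2230 to 2661 CPM with vehicle to 4549 to 4825 CPM with TGFβ. Most of it was *Acta2* (mean 1333 and 2717 CPM) and *Tagln* (876 and 1722 CPM). The lower marker was *Mylk* (log2 fold change −1.10, edgeR adjusted p = 0.000453), and the defining marker *Myh11* was not called (−0.26, 0.205). Of 5 tested pericyte markers, *Cspg4* was higher (log2 fold change 1.45, edgeR adjusted p = 0.000614) and *Notch3* lower (−1.85, 1.58e-05). *Rgs5*, *Kcnj8* and *Abcc9* were not called (edgeR adjusted p of 0.691 to 0.971). The list summed to 224 to 255 CPM with vehicle and 116 to 142 CPM with TGFβ, and the fall in that sum was that of *Notch3* (mean 207 and 57.3 CPM). The 6 leukocyte markers tested (241 to 344 and 209 to 312 CPM) and the 5 mesothelial ones (24.7 to 83.8 and 16.2 to 41.8 CPM) were not called, with edgeR adjusted p of at least 0.281 and 0.0935. Whether these shifts have a part in the family's values was not tested, and in such bulk RNA a change in the number of cells of one kind cannot be told apart from a change in RNA per cell.

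The part of the gene that all members share is the catalytic end, and a stretch of it is shown because it lets the relation between the paralogs and the specificity of the reads be seen. Each stretch is as long as 1 read (75 bases), is written 5′ to 3′ in the sense of the transcript and crosses an exon junction, with 44 bases before it and 31 after it. Capitals mark the 33 bases that code for the histidine-rich motif that holds the copper. The letters are from the reference (GRCm38, GENCODE M21), for 4 of the members.
Loxl1: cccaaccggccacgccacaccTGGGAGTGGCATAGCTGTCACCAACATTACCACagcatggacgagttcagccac
Loxl2: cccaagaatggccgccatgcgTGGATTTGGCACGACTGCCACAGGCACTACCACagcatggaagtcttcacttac
Loxl3: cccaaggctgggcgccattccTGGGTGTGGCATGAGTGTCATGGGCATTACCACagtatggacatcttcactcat
Loxl4: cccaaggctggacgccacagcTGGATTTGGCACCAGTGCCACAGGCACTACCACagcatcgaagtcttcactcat

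The *Loxl1* stretch joined its exons 3 and 4 on the minus strand, chr9:58294359-58294402 and chr9:58293699-58293729. That of *Loxl2* joined exons 10 and 11 on the plus strand, chr14:69682295-69682338 and chr14:69689028-69689058, and that of *Loxl3* its exons 10 and 11 on the plus strand, chr6:83049974-83050017 and chr6:83050116-83050146. In *Loxl4*, exons 11 and 12 on the minus strand met there, chr19:42599877-42599920 and chr19:42598786-42598816. *Loxl2* and *Loxl4* were the closest of the 4 printed, with 63 of 75 bases identical and 31 of the 33 motif bases. *Loxl3* shared 59 bases with *Loxl4* and 57 with *Loxl2*. *Loxl1* differed more from these, with 48 to 51 identical bases.

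Reads of the paralogs could be told apart. No run of identical bases between the longest transcripts of a pair of members was longer than 32, which was the run shared by *Lox* and *Loxl1*, so a read of 75 bases from these transcripts matched 1 member perfectly. The 75-base windows of the longest transcript were searched for in transcripts of other genes, in the sense orientation only. Bases shared with a gene on the opposite strand, as given below for *Loxl3*, could not be found this way. Of these windows, 0% also occurred, in that orientation, in any other gene for *Lox*, *Loxl1*, *Loxl3* and *Loxl4*. For *Loxl2* this share was 44.3% (2322 of 5242 windows), nearly all of it with *Gm21451*, an unprocessed pseudogene on the same chromosome (GRCm38 chr14:69390854-69480287, plus strand). *Gm21451* itself had 27 to 30 counts in every library, 0.121% of those of *Loxl2*. How reads that match both genes were counted is not given in the sources used here, so the level of *Loxl2* relative to its paralogs is uncertain, whereas its ratio between the groups draws on the same windows in all 6 libraries.

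The genes lie on 5 chromosomes and all are annotated as protein-coding. *Loxl1* (ENSMUSG00000032334) has 7 exons at chr9:58287738-58313186 on the minus strand. *Loxl2* (ENSMUSG00000034205) has 14 exons at chr14:69609068-69695834 on the plus strand, and *Loxl3* (ENSMUSG00000000693) 14 exons at chr6:83034173-83052562 on the plus strand. *Loxl4* (ENSMUSG00000025185) has 15 exons at chr19:42593982-42612813 on the minus strand. The exons counted are those of the longest transcript, and *Lox* (ENSMUSG00000024529), on the minus strand of chromosome 18, has 7.

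To set members beside one another, counts were scaled to library size and to the bases covered by the exons of the gene, giving CPM per kilobase. On that scale the order in vehicle-treated cells was *Lox* (779.7 ± 66.8, SD, n = 3), *Loxl1* (258 ± 8.10), *Loxl2* (97.3 ± 2.52), *Loxl3* (20.2 ± 1.54) and *Loxl4* (16.5 ± 2.08). Neighbours in this order did not overlap in any library, and the narrowest gap lay between the lowest *Loxl3* value (18.7) and the highest *Loxl4* value (17.9). With TGFβ the order on this scale was the same, at 1522 ± 17.6 for *Lox*, 290.1 ± 7.11 for *Loxl1*, 202 ± 9.21 for *Loxl2*, 69.5 ± 0.635 for *Loxl3* and 34.9 ± 5.39 for *Loxl4*. The order of *Loxl1* and *Loxl2* under TGFβ depended on the length used, as given below for the shares. Among 14322 tested genes with an annotated length, *Lox* ranked 24th with vehicle and 8th with TGFβ, and *Loxl1* 114th and 101st. *Loxl2* moved from rank 415 to 161, *Loxl3* from 2260 to 622 and *Loxl4* from 2721 to 1309.

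**Figure D1:**
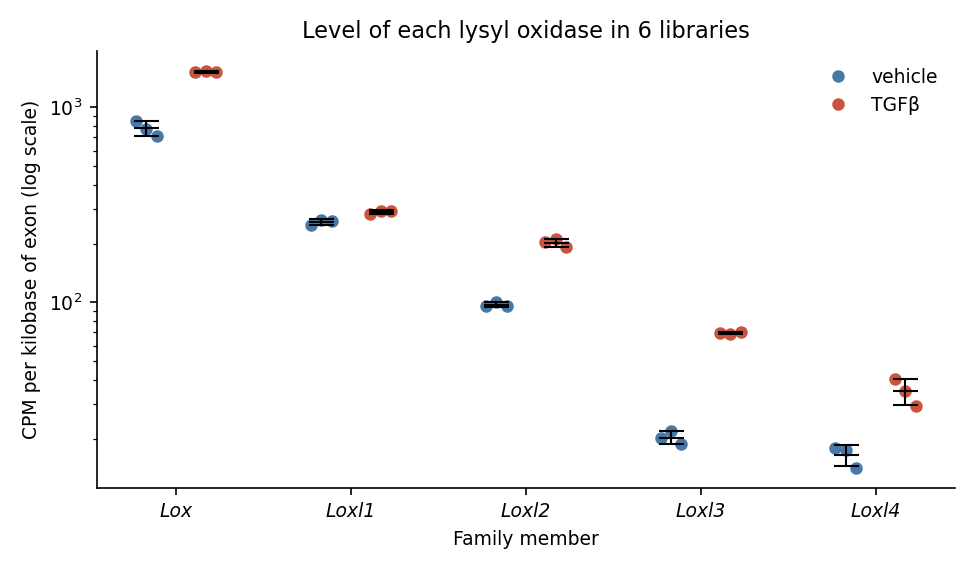
Level of the 5 lysyl oxidases in each library, in CPM per kilobase of exon on a log axis, for vehicle (blue) and TGFβ (red), with black bars for the mean and SD of 3 libraries. Every TGFβ point lies above every vehicle point of the same gene, with the narrowest separation for *Loxl1* (258 to 290.1) and the widest for *Loxl3* (20.2 to 69.5).

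In the edgeR quasi-likelihood fit, all 5 members were called higher at a Benjamini-Hochberg adjusted p under 0.05, where 20.5% of all tested genes were called higher and 20.1% lower. The 2 groups did not overlap in any of the 5, and TGFβ was the upper group in each, which held for 27.2% of tested genes. The two-sided exact permutation test gave p = 0.1 for each member, the smallest p that 3 libraries against 3 allow. The log2 fold change was at least 1 in 3 members, *Loxl2*, *Loxl3* and *Loxl4*, and 2.41% of tested genes were called higher with such a change. The median log2 fold change of all tested genes was −0.0013.

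*Lox* encodes the founding enzyme of the family, which cross-links fibrillar collagen and elastin. It had 4057, 3699 and 3420.0 CPM in vehicle a, b and c and 7241, 7366 and 7206 CPM in TGFβ a, b and c. The groups were far apart, and the vehicle libraries were spread more widely (coefficient of variation 8.57%) than the TGFβ libraries (1.16%). The rise was 1.95-fold, a log2 fold change of 0.96 (SE 0.07, edgeR adjusted p = 6.22e-05), and 2.70% of tested genes had a log2 fold change at least as large. Among the vehicle libraries, the one with the most *Lox* also had the most *Acta2*, the smooth muscle actin of myofibroblasts, at 1497 CPM beside 1269.5 and 1231 CPM. It also had the most *Tagln*, which encodes an actin-binding protein, at 962 CPM beside 879 and 789 CPM. *Tagln* was also the gene nearest to *Lox* in profile, as given below, so this is not a separate observation. The smooth muscle markers *Cnn1* and *Des* were highest in vehicle a too. *Myh11* (25.5, 25.3 and 32.7 CPM in vehicle a, b and c), *Mylk* (42.3, 36.4 and 48.7 CPM), *Smtn* and *Lmod1* were highest in vehicle c, which had the least *Lox*. Vehicle a was highest in mesothelial markers, with *Lrrn4* at 21.5 CPM beside 1.65 and 5.83 CPM and *Upk3b* at 53.4 CPM beside 20.9 and 22.9 CPM. It also had the least *Cdh5* (156 CPM beside 173 and 271 CPM). Among the TGFβ libraries, TGFβ a had the most *Lrrn4* (7.38 CPM beside 1.29 and 2.03 CPM) but not the most *Lox*. TGFβ a also had the most *Acta2* (2801 CPM beside 2688 and 2661.5 CPM) and *Tagln* (1757 CPM beside 1744 and 1665 CPM). The match of *Lox* with these 2 genes in the vehicle libraries was thus not repeated with TGFβ. Whether the make-up or state of the cells in vehicle a has a part in its *Lox* value was not tested. Without vehicle a, or any other single library, the log2 fold change of *Lox* lay between 0.91 and 1.03.

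*Loxl1* encodes the other propeptide enzyme, known for the upkeep of elastic fibres. It had 819.6, 869 and 862 CPM with vehicle and 929.8, 974 and 966 CPM with TGFβ. The groups did not overlap, but the lowest TGFβ library was only 1.07 times the highest vehicle library, and the raw counts (25725 to 26081 with vehicle and 25437 to 27544 with TGFβ) overlapped before libraries were scaled. Its increase was 1.13-fold (log2 fold change 0.17, SE 0.05, edgeR adjusted p = 0.0223), and 26.5% of tested genes had a log2 fold change at least as large. The call was lost in 4 of the 6 fits that left 1 library out. The edgeR adjusted p was then 0.0736 without vehicle a, 0.0565 without vehicle b, 0.0875 without TGFβ b and 0.0539 without TGFβ c, with log2 fold changes of 0.14 to 0.19 over all 6 such fits.

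*Loxl2* encodes a scavenger receptor-type enzyme that acts on collagen IV of basement membranes as well as on fibrillar collagen. Its values were 520.2, 542 and 517 CPM in the vehicle libraries and 1097, 1141 and 1042 CPM in the TGFβ libraries. The lowest TGFβ library was 1.92 times the highest vehicle library, and neither group had a library that stood apart. The rise was 2.08-fold (log2 fold change 1.06, SE 0.05, edgeR adjusted p = 9.40e-06), and 2.34% of tested genes reached it. Leaving out single libraries gave log2 fold changes of 1.02 to 1.08.

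*Loxl3*, a close paralog needed for palate and spine development, showed the largest relative change of the family. It stood at 93.0, 100.1 and 86.0 CPM with vehicle and at 321, 317 and 322 CPM with TGFβ. The TGFβ libraries were nearly level, with a coefficient of variation of 0.914% where counting error alone gives 1.06%, and the lowest of them was 3.16 times the highest vehicle library. The rise was 3.44-fold (log2 fold change 1.78, SE 0.06, edgeR adjusted p = 3.66e-06), which placed *Loxl3* at rank 136 of all tested genes by log2 fold change. The end of the gene overlaps, on the other strand, *Htra2*, a mitochondrial protease gene, with 535 exon bases in common. The libraries were made with a stranded kit, but whether strand was used in counting is not given in the sources used here. *Htra2* had 25.9% as many counts as *Loxl3* over the 6 libraries, a share that was larger with vehicle. It had 1495 to 1608 counts per vehicle library, where *Loxl3* had 2565 to 2970. With TGFβ it had 1427 to 1568 counts per library, where *Loxl3* had 8780 to 9183. The log2 fold change of *Htra2* was 0.08 (edgeR adjusted p = 0.142). Whether reads of *Htra2* have a part in the values of *Loxl3* was not tested.

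*Loxl4* was the least abundant member and the most variable. Its values were 75.4, 73.9 and 59.5 CPM with vehicle and 169.7, 148 and 124 CPM with TGFβ. They fell from library a to library c in both groups. *Loxl1* and *Loxl2* also kept the order of their libraries in both groups, whereas *Lox* and *Loxl3* did not. Whether a pairing of libraries has a part in the spread of *Loxl4* was not tested. The groups were separate, but the 3 TGFβ libraries covered a wide range, and the coefficients of variation of 12.6% and 15.4% were well above the 2.18% and 1.57% of counting error. *Loxl4* rose 2.11-fold (log2 fold change 1.08, SE 0.13, edgeR adjusted p = 0.000478). Over the fits that left out 1 library the log2 fold change was 0.96 to 1.18, without loss of the call.

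Whether paralogs changed by different amounts was tested on the ratio of their counts within each library, which does not depend on library scaling or on gene length. Over the 10 pairs, the groups did not overlap in 7, each with p = 0.1 in the two-sided exact permutation test (0.143 after Benjamini-Hochberg adjustment over the 10 pairs), so no pair could pass 0.05 in this design. Pairs that share a member are not independent, and the 7 are those that hold *Loxl1* or *Loxl3*. How often pairs of other genes separate was not examined. The 4 pairs with *Loxl1* all separated, and *Loxl1* had the smaller relative change in each. The log2 ratio differed by 0.80 for *Lox* over *Loxl1*, by −0.88 for *Loxl1* over *Loxl2*, by −0.91 for *Loxl1* over *Loxl4* and by −1.61 for *Loxl1* over *Loxl3*. The pairs with *Loxl3* separated too, and *Loxl3* had the larger relative change in each, with differences of −0.82 for *Lox* over *Loxl3*, −0.73 for *Loxl2* over *Loxl3* and 0.71 for *Loxl3* over *Loxl4*.

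*Lox*, *Loxl2* and *Loxl4* kept closer together, and their ratios to one another overlapped between vehicle and TGFβ. The log2 ratio of *Lox* to *Loxl2* was 2.82 ± 0.13 with vehicle and 2.73 ± 0.05 with TGFβ (SD, n = 3 each), a difference of −0.09 (exact permutation p = 0.4, adjusted 0.5). For *Lox* over *Loxl4* the difference was −0.11 (exact permutation p = 0.6, adjusted 0.667), and for *Loxl2* over *Loxl4* it was −0.02 (exact permutation p = 0.9 before and after adjustment). The direction of both ratios to *Loxl4* turned when single libraries were left out: without TGFβ a that of *Lox* to *Loxl4* became 0.0026 and that of *Loxl2* to *Loxl4* 0.083, and without vehicle c the latter became 0.073. With 3 libraries a group, a difference smaller than this spread was not detectable.

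**Figure D2:**
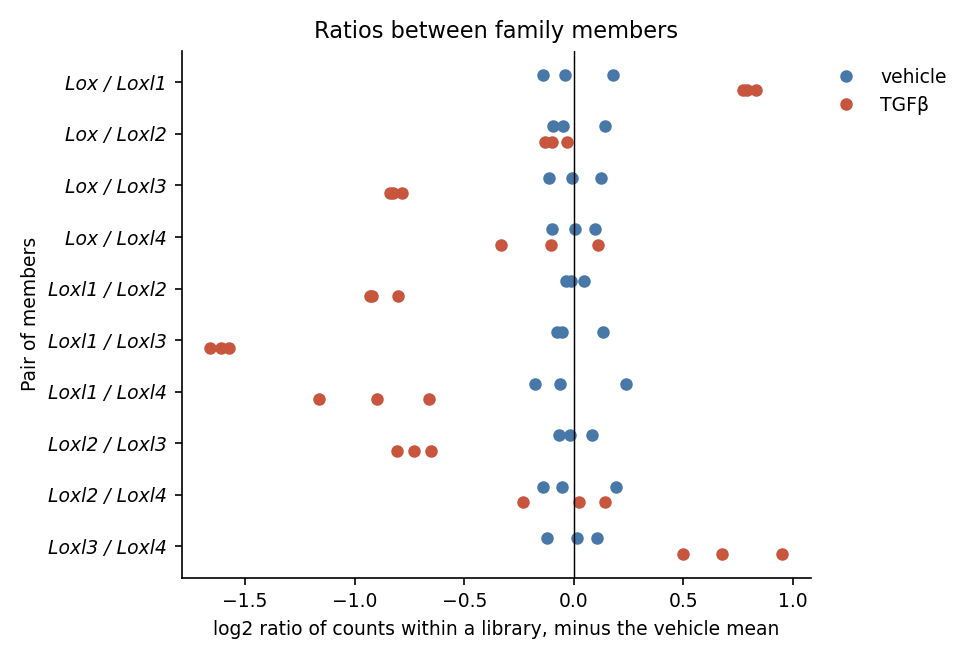
log2 ratio of the counts of each pair of members within a library, set to the vehicle mean of that pair at 0 on the horizontal axis, with 3 vehicle (blue) and 3 TGFβ (red) libraries per pair. In 7 of the 10 pairs the colours do not overlap, the widest shift being that of *Loxl1* over *Loxl3* (−1.61), while pairs among *Lox*, *Loxl2* and *Loxl4* overlap.

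Summed over the family, expression was 1232, 1177 and 1106 CPM per kilobase with vehicle and 2110.4, 2152 and 2093 CPM per kilobase with TGFβ. The total was 1.81-fold higher with TGFβ (1172 ± 63.3 to 2119 ± 30.1, SD, n = 3 each), with groups that did not overlap (exact permutation p = 0.1). *Lox* carried most of this difference, but the other 4 members together were also higher, at 392 ± 10.2 with vehicle and 597 ± 12.6 CPM per kilobase with TGFβ, 1.52-fold (exact permutation p = 0.1). As a share of all counts, reads of the family made up 0.536 ± 0.0335% with vehicle and 0.960 ± 0.00169% with TGFβ.

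*Loxl1* made up a smaller part of that total with TGFβ. Its share was 20.2%, 22.4% and 23.7% in vehicle a, b and c and 13.4%, 13.7% and 14.0% in TGFβ a, b and c, a difference of −8.38 percentage points. The mean of its own level was slightly higher with TGFβ, with the limits given above. The share of *Lox* was 68.9%, 65.8% and 64.7% with vehicle and 71.8%, 71.6% and 72.0% with TGFβ, 5.36 points higher on average. *Loxl2* went from 7.81%, 8.51% and 8.64% to 9.61%, 9.81% and 9.21%, 1.22 points higher. The share of *Loxl3* was 1.55 points higher, at 1.73 ± 0.109% with vehicle and 3.28 ± 0.0762% with TGFβ (SD, n = 3 each), the largest relative difference of the 5. For *Loxl4* the groups overlapped, at 1.41 ± 0.113% and 1.65 ± 0.250% (difference 0.242 points, exact permutation p = 0.3, adjusted over the 5 shares 0.3). Each of the other 4 shares separated without overlap (exact permutation p = 0.1, adjusted 0.125), and shares that sum to 100% cannot move independently.

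**Figure D3:**
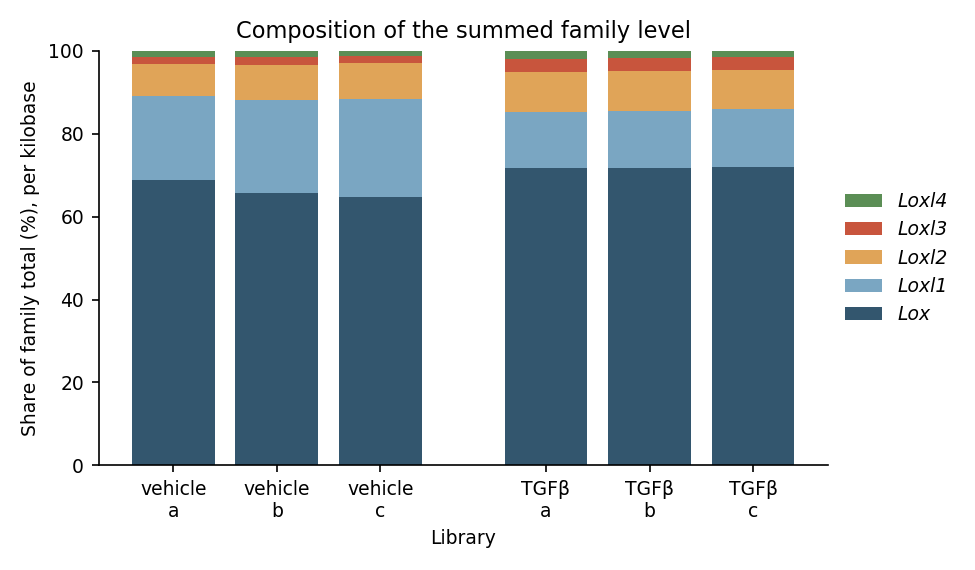
Share of each member in the summed level of the family, in percent of CPM per kilobase, for each of the 3 vehicle and 3 TGFβ libraries. *Lox* makes up 64.7% to 68.9% of the bars with vehicle and 71.6% to 72.0% with TGFβ, and *Loxl1* narrows from 22.1 ± 1.76% to 13.7 ± 0.318% (SD, n = 3 each).

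Shares depend on the length used. With the coding length alone, the share of *Lox* was 79.7 ± 1.55% with vehicle and 83.1 ± 0.166% with TGFβ, since the coding part of *Lox* is short beside its other exons, and the difference in the share of *Loxl1* was −4.98 points. The length was also limited to windows found in no other gene, a choice made after seeing the data that would be right if no read of the shared windows had been counted for *Loxl2*. Its share was then 14.1 ± 0.708% with vehicle and 15.9 ± 0.476% with TGFβ. On that scale *Loxl2* stood above *Loxl1* (12.6 ± 0.316%) with TGFβ and below it (20.6 ± 1.58%) with vehicle. With no length scaling, too, *Loxl2* (11.2 ± 0.351%) stood above *Loxl1* (9.77 ± 0.237%) with TGFβ. The rank of these 2 members under TGFβ therefore depends on the length used and on how shared reads were treated, while every length kept the direction of all 5 shares.

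Enzymes and substrate were set side by side in a ratio chosen after the data were seen. The 11 fibrillar collagen genes together had 6945 ± 551 CPM per kilobase with vehicle and 7009.8 ± 313 with TGFβ (exact permutation p = 0.9). This sum joins genes that moved in opposite directions. The mean of *Col3a1* was 1862 with vehicle and 974 CPM per kilobase with TGFβ. That of *Col1a1* was 3046 and 3578, and that of *Col5a2* 653 and 863. The family total per 100 units of the collagen sum was 19.3, 16.9 and 14.8 with vehicle and 31.5, 30.8 and 28.5 with TGFβ. All TGFβ libraries were above all vehicle libraries, and the ratio of means was 1.78 (exact permutation p = 0.1). The 3 vehicle libraries differed among themselves by more than the TGFβ libraries did, vehicle a having both the most *Lox* and the least collagen (6379 beside 6976 and 7479 CPM per kilobase).

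Among the substrates themselves, 5 of the 12 fibrillar collagen and elastin genes were called higher and 2 lower, with a median log2 fold change of 0.26. Beside this list and those that follow, 20.5% of all tested genes were called higher and 20.1% lower. The fibrillar collagen genes *Col2a1* (2.27, edgeR adjusted p = 0.000885) and *Col11a1* (1.49, 0.000482) rose, *Col2a1* at a low level (4.20 CPM with vehicle and 20.3 CPM with TGFβ). The far more abundant *Col5a2* (0.40, edgeR adjusted p = 0.000857) and *Col5a1* (0.29, 0.00300) were also higher. So was the elastin gene *Eln* (0.97, 0.0168), whose call was lost without vehicle b (0.055). *Col3a1* fell by 0.94 on the log2 scale (edgeR adjusted p = 0.00104), *Col5a3* fell by 1.06 (0.00851), and *Col1a1* was not called (0.23, 0.055). *Col1a1* was called without the low-count filter (edgeR adjusted p = 0.0173), with limma-voom (0.0369), with DESeq2 (0.00929) and without vehicle c (0.0291). Of the 6 collagen IV genes, the basement membrane substrates, 2 were lower and the remaining 4 were not called. The lower ones were *Col4a6* (−0.64, edgeR adjusted p = 0.00507) and *Col4a5* (−0.33, 0.0427). The call of *Col4a5* was lost without vehicle a (edgeR adjusted p = 0.117), vehicle b (0.133), TGFβ b (0.0666) or TGFβ c (0.083).

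Lysine residues are hydroxylated inside the cell before lysyl oxidases act on them outside. In the lysyl hydroxylation list, 5 of 8 genes were higher and the other 3 were not called, with a median log2 fold change of 0.30. The higher ones included *Fkbp10* (0.78, edgeR adjusted p = 1.75e-05), which encodes a chaperone of this complex, *P3h4* (0.61, 0.000386), and the hydroxylase genes *Plod3* (0.40, 0.000255) and *Plod1* (0.36, 0.0156, and 0.051 without TGFβ b). The more abundant hydroxylase gene *Plod2* (694 CPM with vehicle and 782 CPM with TGFβ) was not called (0.17, edgeR adjusted p = 0.111).

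The proteases and enhancers that remove propeptides from procollagen, and some of them from *Lox* products, were mixed. Of 7 tested genes, 2 were higher and 4 lower (median log2 fold change −0.29). *Tll1*, a relative of *Bmp1* at a low level, rose from 3.09 ± 1.37 to 19.1 ± 13.9 CPM (log2 fold change 2.62, edgeR adjusted p = 0.00818). TGFβ a was the highest library, and without it the log2 fold change was 1.86 (edgeR adjusted p = 0.0142). *Bmp1*, which encodes the protease known to cut the *Lox* propeptide, was not called at 449 ± 43.5 and 481 ± 47.8 CPM (log2 fold change 0.10, edgeR adjusted p = 0.431). The procollagen N-proteinase genes *Adamts3* (−1.03), *Adamts14* (−0.94) and *Adamts2* (−0.55) fell, with edgeR adjusted p of 0.00188, 2.79e-05 and 0.000138. *Adamts3* was at a low level, 3.15 CPM with vehicle and 1.54 CPM with TGFβ.

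Of 10 matrix scaffold genes whose products bind lysyl oxidases or present the substrate to them, 6 were higher and 2 lower, with a median log2 fold change of 0.44. *Thbs1*, which encodes thrombospondin 1, rose by a log2 fold change of 1.80 (edgeR adjusted p = 4.17e-05), and *Ltbp4*, for a microfibril protein of elastic fibres, by 0.97 (8.51e-06). *Fbn2*, a fibrillin gene of development, fell by 1.97 (4.10e-06). *Fn1*, for fibronectin, was not called (log2 fold change 0.04, edgeR adjusted p = 0.786). *Postn*, for periostin, which brings *Bmp1* to the matrix, had a log2 fold change of 1.55 (edgeR adjusted p = 6.49e-05).

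Of 11 genes that take up, reduce, carry or store copper, 2 were higher and 6 lower, with a median log2 fold change of −0.32. The higher ones were *Slc31a1* (log2 fold change 0.24, edgeR adjusted p = 0.00375) and *Ccs* (0.25, 0.0154). The metal reductase gene *Steap4* went from 63.7 ± 10.8 to 9.20 ± 2.61 CPM (log2 fold change −2.79, edgeR adjusted p = 5.05e-05), and *Steap3* fell by 0.86 (0.00120). The metallothionein genes *Mt2* (−0.86, edgeR adjusted p = 0.0336) and *Mt1* (−0.58, 0.0201) were lower. The call of *Mt2* was lost without vehicle b (edgeR adjusted p = 0.0566), vehicle c (0.0891), TGFβ a (0.113) or TGFβ b (0.106) and with DESeq2 (0.0597), and that of *Mt1* without vehicle c (0.0543), TGFβ a (0.074) or TGFβ b (0.0724). *Atp7a*, which encodes the pump that loads copper onto lysyl oxidases in the secretory pathway, was not called (log2 fold change −0.07, edgeR adjusted p = 0.304). The related copper amine oxidase gene *Aoc3* fell by 1.70 on the log2 scale (edgeR adjusted p = 4.64e-05), and *Aoc2* was not called.

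**Figure D4:**
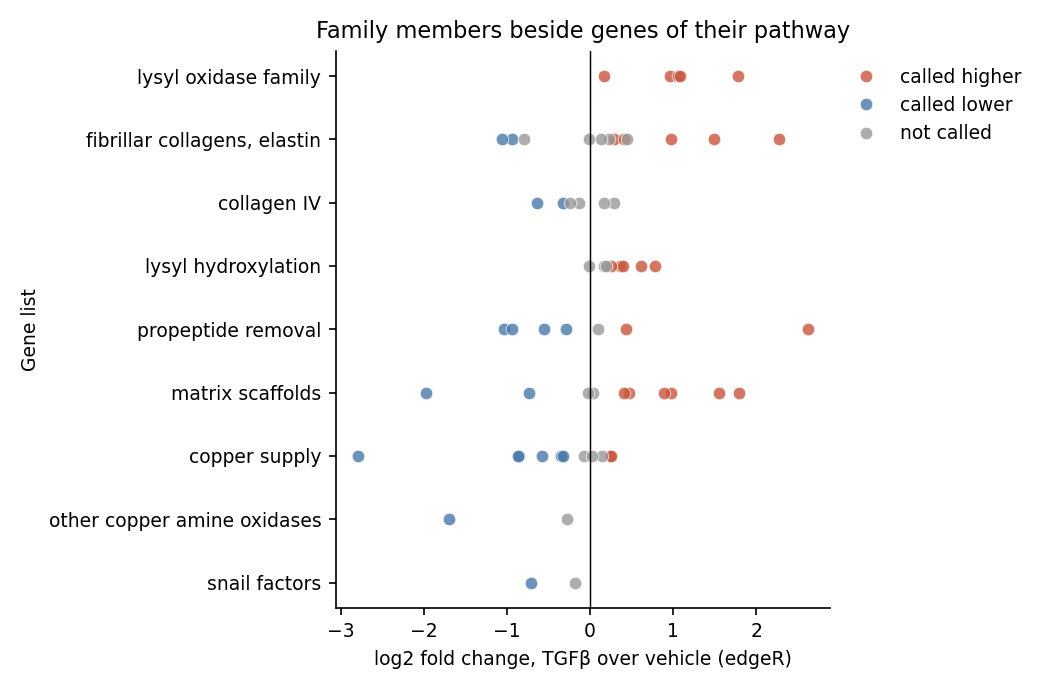
log2 fold change (TGFβ over vehicle, edgeR) of the 5 family members and of the tested genes of 8 lists, 1 point per gene, red where called higher, blue where called lower and grey where not called. Points of the family are all red and those of the lysyl hydroxylation list red or grey, whereas 6 of the 11 copper supply genes are called lower and 2 higher.

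Of 3 snail transcription factors, a group known as partners of *Loxl2* and *Loxl3* in the nucleus of tumour cells, only 2 were among the genes listed. These 2 did not rise with *Loxl2* and *Loxl3*. *Snai2* fell by 0.71 on the log2 scale (edgeR adjusted p = 4.69e-05) and *Snai1* was not called (−0.18, 0.0504).

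Among 8 tested genes from the same stretch of chromosome as a member, 2 were higher and 1 was lower, beside 20.5% and 20.1% of all tested genes. Not all of the 8 are adjacent to the member. *Pml* has 1 coding gene between it and *Loxl1*, and *Slc25a37* lies 323955 bases from *Loxl2* with 5 coding genes between. The nearest of the called genes was *Dok1*, an adaptor protein gene of kinase signalling, which starts on the opposite strand 701 bases from the *Loxl3* gene (chr6:83030934-83033471, GRCm38). It had 27.1, 27.1 and 25.2 CPM with vehicle and 60.8, 56.6 and 62.5 CPM with TGFβ. Every TGFβ library was above every vehicle library by a wide margin, with a log2 fold change of 1.18 (SE 0.05, edgeR adjusted p = 8.51e-06). At the other end of *Loxl3*, the overlapping *Htra2* was not called, as given above. *R3hcc1l*, which lies 1638 bases from *Loxl4*, was not called either (−0.11, edgeR adjusted p = 0.261), and *Pyroxd2*, 113044 bases away with no coding gene between, fell by 0.62 (0.00818). *Srfbp1*, the coding gene next to *Lox*, had a log2 fold change of 0.19 (edgeR adjusted p = 0.035), a call that all 6 fits without 1 library lost (0.0757 to 0.0902). It was also lost in 3 other alternatives, DESeq2 (0.192) among them.

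The genes most like each member were those with the smallest root mean square difference in log2 CPM from the vehicle mean over the 6 libraries, among 10373 genes with at least 5 CPM. For *Lox* they were *Tagln* (0.03), *Nuak2* (0.05) and *Ltbp4* (0.05). *Tagln* went from 876 to 1722 CPM and shared the order of the vehicle libraries with *Lox*, and *Nuak2* encodes a kinase. For *Loxl1* they were *Lsg1* (0.01), *Eif2ak3* (0.02) and *Rps27a* (0.02), genes of ribosome assembly, the stress response of the endoplasmic reticulum and the ribosome.

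For *Loxl2* the nearest were *Ldlrad4* (0.03), *Garem2* (0.06) and *Nedd9* (0.06), of which *Ldlrad4* is known as an inhibitor of TGFβ signalling and *Nedd9* encodes a focal adhesion scaffold. *Loxl3* was followed most closely by *Fxyd6* (0.08), a regulator of the sodium pump, *Cthrc1* (0.12), a secreted matrix protein gene, and *Fstl3* (0.12), for an antagonist of activin. *Loxl4* had *Igf1* (0.07), for a growth factor, *Pik3cb* (0.10), for a lipid kinase subunit, and *Aldh1l2* (0.10), for a mitochondrial folate enzyme. The likeness is a description over 6 libraries of 2 groups, in which any genes with a like fold change come out close.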

How the data were processed

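RNA-seq was available for 3 vehicle and 3 TGFβ libraries. The authors used a stranded poly(A) kit and deposited a table of whole-number counts of reads per gene, without normalization. Per the submitters' processing notes mm10 and DESeq2 were used, while aligner, counter, annotation and strand setting are not given in the sources used here. The table's mean, fold change, p-value and adjusted p columns, the authors' own comparison, were not used.

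Counts (27851677 to 31072338 per library) were scaled with TMM factors, filtered with filterByExpr and tested with edgeR 4.0.16 (quasi-likelihood test, R 4.3.3), with Benjamini-Hochberg adjustment over 14334 genes and a threshold of 0.05. The standard error is the log2 fold change over the square root of F. The steps were also run on simulated counts that gave every gene the same spread, so that run does not bear on spread that differs between genes. Lengths are unions of exons in GENCODE M21 (GRCm38). Single quantities were compared with two-sided exact permutation tests (scipy 1.17.1).

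The members and the gene lists were chosen with earlier results of these data known. The genes named are the members, at most 4 called genes with separate groups per list, *Col1a1*, *Col3a1*, *Eln*, *Bmp1*, *Fn1*, *Postn* and *Atp7a*, and 3 genes of like profile per member. *Acta2*, *Tagln* beside it, the cell type markers, *Htra2*, *R3hcc1l*, *Gm21451*, *Aoc2* and *Snai1* were named after their values were seen. The same holds for *Slc31a1*, *Ccs*, *Plod2*, *Col5a1*, *Col5a2*, *Pml* and *Slc25a37*. Alternatives were DESeq2 1.42.0 or its size factors, upper quartile scaling, limma-voom (limma 3.58.1), no filter, a filter of 1 CPM in 3 libraries, an adjusted p of 0.01, other lengths and each library left out. Lengths from unique windows, the collagen ratio and leaving out libraries for the family total were chosen after seeing the data. Leaving out a library left 2 in its group.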

Additional observations from a re-analysis of the deposited data

How the results depend on the processing

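*Lox*, *Loxl2*, *Loxl3* and *Loxl4* kept their direction and their call in all 13 alternatives. *Loxl1* kept its direction in all 13 but lost its call at an adjusted p of 0.01 (log2 fold change 0.17, adjusted p = 0.0223) and in 4 of the 6 fits without 1 library (0.14 to 0.19 over the 6). Without single libraries the log2 fold changes were 0.91 to 1.03 for *Lox*, 1.02 to 1.08 for *Loxl2*, 1.73 to 1.84 for *Loxl3* and 0.96 to 1.18 for *Loxl4*. At an adjusted p of 0.01, 1855 genes were higher and 1740 lower. Without single libraries these counts were 2243 to 2716 and 2246 to 2765, and 20 to 23 and 17 to 19 for the genes of the pathway lists. With the coding length the shares changed by −4.98 points for *Loxl1*, 0.63 for *Loxl2* and 0.90 for *Loxl3*. Without length scaling that of *Loxl1* was −6.43 points, with the longest transcript that of *Loxl3* was 1.72, and with unique windows that of *Loxl2* was 1.88. Without single libraries the changes were 4.49 to 6.58 points for *Lox*, −9.32 to −7.59 for *Loxl1*, 0.966 to 1.39 for *Loxl2*, 1.51 to 1.62 for *Loxl3* and 0.112 to 0.362 for *Loxl4*. The log2 ratio of *Lox* to *Loxl4* was −0.22 to 0.0026 (0.0026 without TGFβ a) and that of *Loxl2* to *Loxl4* −0.10 to 0.083 (0.073 without vehicle c, 0.083 without TGFβ a). The other ratios kept their sign, at 0.73 to 0.89 for *Lox* to *Loxl1*, −0.13 to −0.015 for *Lox* to *Loxl2*, −0.87 to −0.75 for *Lox* to *Loxl3*, −0.93 to −0.86 for *Loxl1* to *Loxl2*, −1.65 to −1.55 for *Loxl1* to *Loxl3*, −1.03 to −0.78 for *Loxl1* to *Loxl4*, −0.77 to −0.69 for *Loxl2* to *Loxl3* and 0.59 to 0.81 for *Loxl3* to *Loxl4*. The log2 fold of the family total was 0.81 to 0.89, and against fibrillar collagen 0.74 to 0.94. *Fn1*, not called, ranged from −0.028 (without TGFβ b) to 0.13 on the log2 scale. These causes were not tested, apart from the stricter threshold. No paired analysis was possible because the count columns carry no replicate number. With at least 1776 counts per member and library, the spread between libraries limits precision for most values, rather than depth.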
